A study of Homo sapiens with 12 samples.

Results

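Aminoacyl-tRNA synthetases load each transfer RNA with its amino acid, and 36 genes for these enzymes were followed here, chosen by gene symbol from the genes the tables list. By symbol, 20 were counted as genes of cytosolic enzymes or subunits and 16, which end in 2, as genes of mitochondrial enzymes. A symbol without a 2 does not show that a gene serves the cytosol alone, and an alternative below left out GARS and KARS. The 20 cytosolic genes were divided into 12 that general knowledge names as targets of ATF4 (AARS, CARS, EPRS, GARS, IARS, LARS, MARS, NARS, SARS, TARS, WARS and YARS, called ATF4-linked below) and 8 others (DARS, FARSA, FARSB, HARS, KARS, QARS, RARS and VARS). All 36 were listed in each of the 4 tables used, whose lists hold 20026 genes (siRFX7 in DMSO), 19393 genes (siRFX7 in Nutlin-3a) and 23195 genes (either Nutlin-3a comparison). Their presence follows from that choice and does not show whether a filter on low values removed other synthetase genes.

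The cells were HCT116, a human colorectal carcinoma line with intact p53. They received siControl, a control siRNA, or siRFX7, which targets the transcription factor gene RFX7, and then DMSO solvent or 10 µM Nutlin-3a, an MDM2 inhibitor that stabilizes p53, for 24 h. Each siRNA was combined with each treatment, which gave 4 groups of 3 polyA RNA libraries, named below by siRNA and treatment, and all cells had been transfected with an siRNA. The labels state neither the siRNA sequences nor how many different siRNAs were used against RFX7, so the siRFX7 groups stand for the siRNA treatment as labelled. They also do not say whether replicates were separate cultures, so the p-values measure only the spread between these libraries. In bulk RNA such as this, fewer cells of a type and less RNA per cell cannot be told apart.

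The values are statistics per group, so no value per library is given, and the 4 group means quoted for a gene were computed from the mean normalized counts and fold changes of the authors' deposited tables. Mean normalized counts in those tables summed to 26801484 over all genes, and the depth of single libraries is not known here. RFX7 itself had group means of 944 (DMSO) and 1332 (Nutlin-3a) with siControl, and 185 (DMSO) and 302 (Nutlin-3a) with siRFX7. Its log2 fold change with siRFX7 in the authors' deposited tables was -2.35 in DMSO and -2.14 in Nutlin-3a. The p53 targets MDM2 and CDKN1A had log2 fold changes with Nutlin-3a in siControl of 3.99 and 4.46 in the authors' deposited table. They also rose with siRFX7 in DMSO, with 0.49 and 1.29 (log2) in the authors' deposited table (DESeq2 adjusted p = 1.19e-12 and 5.01e-39), the comparison in which the ATF4-linked members fell, and their part in that result was not tested. The Nutlin-3a log2 fold change under siRFX7 minus that under siControl was -0.69 for MDM2 and -0.93 for CDKN1A (z test adjusted p = 1.90e-12 and 7.17e-10). All 7 epithelial marker genes examined were listed, with mean normalized counts in the authors' deposited tables of 80338 for KRT8, 54952 for KRT19, 33123 for KRT18, 7516 for EPCAM, 2585 for CDH1, 698 for CDX2 and 8.0 for VIL1. Of the leukocyte markers 1 of 4 was listed, and of the endothelial markers 1 of 3, VWF at 13.5, above VIL1. The 4 fibroblast markers lay between 1.15 and 441, the highest being COL1A1.

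Cytosolic synthetases supply the ribosomes that read nuclear mRNA, and mitochondrial synthetases, encoded in the nucleus and imported, supply the organelle's own ribosomes. When amino acids run short or the endoplasmic reticulum is stressed, kinases phosphorylate eIF2alpha, translation of most mRNA slows and that of ATF4 rises. ATF4 is a transcription factor that binds a composite C/EBP-ATF element and activates genes of amino acid synthesis and import together with a set of cytosolic synthetases. Several cytosolic synthetases sit in a multi-synthetase complex held by the scaffold proteins AIMP1, AIMP2 and EEF1E1.

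The element was looked for in the members' promoters because the classes are defined by their link to ATF4. The promoters were those of RefSeq on GRCh38.p14, from 250 bases before to 50 after each start site, and 30 of the 36 members matched an entry. LARS, YARS, DARS, VARS, AARS2 and VARS2 had no entry. The motif TGATGCAA, on either strand, was found in 6 of 10 ATF4-linked members (60.0%), in 0 of 6 other cytosolic members and in 0 of 14 mitochondrial members, beside 1.08% of the 27305 genes with an entry and 0.866% of their 35116 promoters of the same length. Members are counted as genes, some with more than 1 promoter. The 6 windows are printed in the direction of transcription, 5′ to 3′, with the motif in capitals. It reads TTGCATCA where it lies on the opposite strand, as in all of them except NARS.
AARS, chr16:70289675-70289704, minus strand: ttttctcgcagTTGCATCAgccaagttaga
CARS, chr11:3057407-3057436, minus strand: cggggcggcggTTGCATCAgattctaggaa
IARS, chr9:92293692-92293721, minus strand: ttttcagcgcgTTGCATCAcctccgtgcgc
MARS, chr12:57488053-57488082, plus strand: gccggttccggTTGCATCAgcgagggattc
NARS, chr18:57621804-57621833, minus strand: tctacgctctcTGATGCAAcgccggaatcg
TARS, chr5:33440956-33440985, plus strand: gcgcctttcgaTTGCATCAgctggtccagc

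The first base of the motif lay from 187 bases before the start site in AARS to 14 after it in NARS, and within 15 bases of it in CARS, IARS, MARS, NARS and TARS. The looser form TGATGNAA, which includes every TGATGCAA match, was found in 4.46% of genes and 3.62% of promoters, and it added GARS among the ATF4-linked members and YARS2 among the mitochondrial ones. These 2 windows are shown because they hold the only further matches among the members.
GARS, chr7:30594834-30594863, plus strand: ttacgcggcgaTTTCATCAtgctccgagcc
YARS2, chr12:32756076-32756105, minus strand: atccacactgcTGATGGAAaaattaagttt
EPRS, SARS and WARS held neither form in this window. A match is a description of the letters, and since the class was taken from knowledge of ATF4 targets, the motif is not independent of it.

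Short forms of the X-box, the element that RFX factors recognise, were searched for as GTTGCCA and GTTGCTA, on either strand. GTTGCCA was found in 1 member, FARSB, beside 4.98% of genes and 4.08% of promoters, and GTTGCTA in 1 member, WARS2, beside 3.49% of genes and 2.85% of promoters. The 2 windows are shown because RFX7 was the siRNA target.
FARSB, chr2:222656173-222656201, minus strand: gaacaggaactGTTGCCAgcagaatggcg
WARS2, chr1:119140878-119140906, minus strand: cagtctaaagcGTTGCTActaataacccc
The E-box CACGTG, bound by MYC and MAX, was in IARS, CARS2, EARS2 and MARS2, that is in 4 of the 30 members examined, beside 8.77% of genes and 7.26% of promoters.

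Levels of the members spanned mean normalized counts from 141 for SARS2 to 16805 for IARS. On a scale of mean normalized counts per kilobase of exon, ATF4-linked members had a median level of 1541, from 242 for CARS to 2271 for IARS. The other cytosolic members had a median level of 1490 per kilobase, from 584 for HARS to 2296 for FARSA. Mitochondrial members had a median level of 255 per kilobase, from 39.3 for WARS2 to 1640 for IARS2. A total of 9 mitochondrial and 0 cytosolic members had, in the authors' deposited tables, a mean normalized count under 1000, and the median standard error of the siRFX7 log2 fold change in DMSO was 0.047 for ATF4-linked, 0.050 for other cytosolic and 0.072 for mitochondrial members.

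The question of the first comparison was how siRFX7 cells differ from siControl cells in DMSO, and the ATF4-linked cytosolic enzymes were lower under siRFX7 there. In the authors' deposited table their median log2 fold change was -0.73, from -1.22 for CARS to -0.31 for IARS, beside -0.00 for all genes listed and -0.05 for the 6184 abundant genes, those whose mean normalized count is at least 1000. All 12 fell at an adjusted p below 0.05 by DESeq2's Wald test with Benjamini-Hochberg adjustment, the rule used for every call below. Members and lists were chosen with earlier results of these data known, so this count describes the class and does not test it. VARS, moved into the class in an alternative below, rose in the same table (log2 fold change 0.25, DESeq2 adjusted p = 1.07e-07). Of all genes that table holds, 15.5% were called lower, 13.5% higher and 29.0% in either direction, and of the abundant genes 27.8%, 16.5% and 44.4%. Among the 8 other cytosolic enzymes 3 rose, 2 fell and 3 did not pass, with a median log2 fold change of 0.04 in the authors' deposited table. Among the 16 mitochondrial enzymes 0 rose, 5 fell and 11 did not pass, with a median of -0.04.

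**Figure D1:**
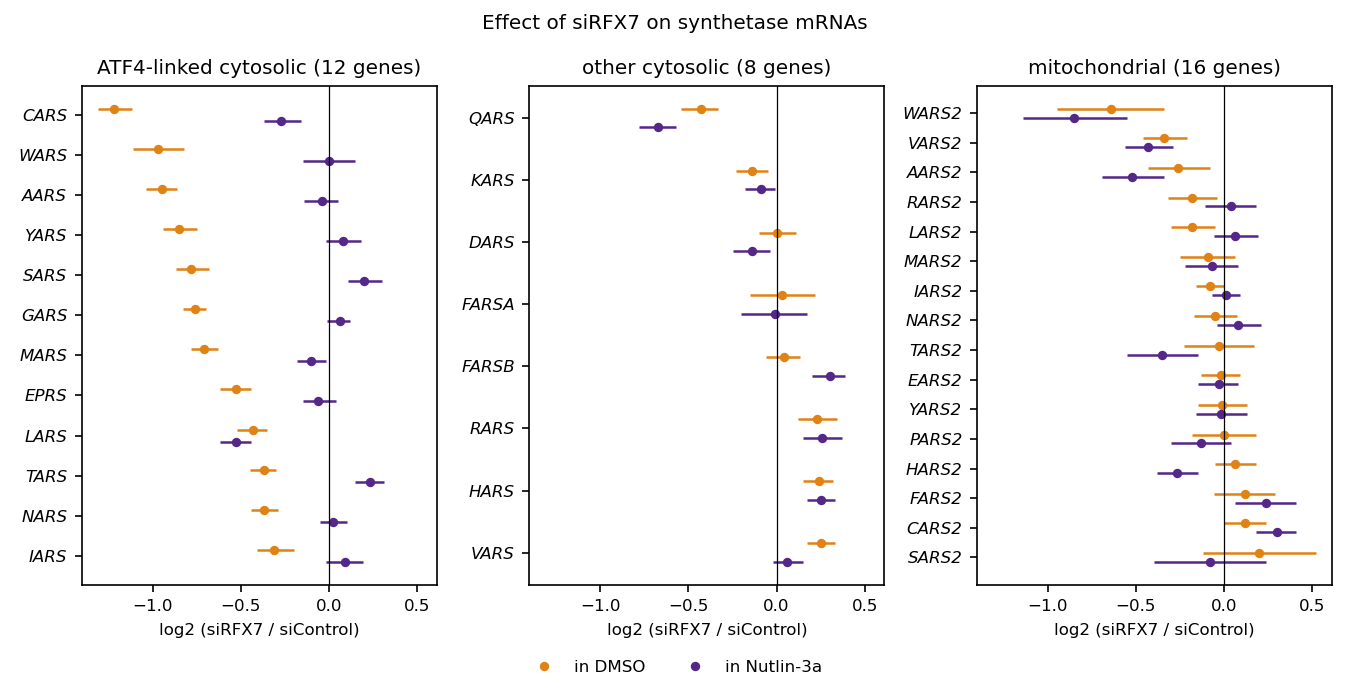
Log2 fold change of siRFX7 over siControl for each of the 36 members, in DMSO and in Nutlin-3a, by class, with 95% intervals from the authors' standard errors. In DMSO all 12 ATF4-linked members lie below 0, between -1.22 and -0.31, and in Nutlin-3a they lie between -0.53 and 0.23.

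CARS, the cysteinyl enzyme (chromosome 11 from 3000922 to 3057613, minus strand, GRCh38), had the lowest fold change of the 36 in DMSO. Its group means were 4194 (DMSO) and 2032 (Nutlin-3a) with siControl, and 1807 (DMSO) and 1689 (Nutlin-3a) with siRFX7. Only the siControl DMSO group stood high. With siRFX7 in DMSO the authors' deposited table gives CARS a log2 fold change of -1.22 (standard error 0.051, DESeq2 adjusted p = 4.83e-123), a fall to 43.1% of the control level.

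WARS, the tryptophanyl enzyme (chromosome 14 from 100333788 to 100376805, minus strand), showed group means of 7558, 4274, 3870 and 4269 in the same order of groups. The 3 groups other than siControl DMSO lay close together. With siRFX7 in DMSO, the authors' deposited table gives a log2 fold change of -0.97 (standard error 0.076, DESeq2 adjusted p = 6.96e-35), a fall to 51.2%.

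AARS, the alanyl enzyme (chromosome 16 from 70252295 to 70289543, minus strand), had means of 13611 (DMSO) and 4295 (Nutlin-3a) with siControl, and 7054 (DMSO) and 4173 (Nutlin-3a) with siRFX7. Here siRFX7 DMSO stood between the control and the Nutlin-3a groups. AARS fell to 51.8% with siRFX7 in DMSO in the authors' deposited table, a log2 fold change of -0.95 (standard error 0.047, DESeq2 adjusted p = 1.14e-87).

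The remaining ATF4-linked members that fell in DMSO were YARS (-0.85), SARS (-0.78), GARS (-0.76), MARS (-0.71), EPRS (-0.53), LARS (-0.43), NARS (-0.37), TARS (-0.37) and IARS (-0.31), all log2 fold changes from the authors' deposited table. These load tyrosine, serine, glycine, methionine, glutamate and proline (EPRS carries both activities), leucine, asparagine, threonine and isoleucine. Over the 12 members, summed group means were 133521 in siControl DMSO and 87032 in siRFX7 DMSO, or 65.2% of the control sum. The other cytosolic members summed to 47448 and 49293, or 104%, and the mitochondrial members to 22428 and 21369, or 95.3%.

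Of the other cytosolic members, QARS, the glutaminyl enzyme (chromosome 3 from 49095932 to 49105135, minus strand), fell by an amount within the range of the ATF4-linked members. Its means were 5231 (DMSO) and 7325 (Nutlin-3a) with siControl, and 3871 (DMSO) and 4594 (Nutlin-3a) with siRFX7, and both siRFX7 groups stood below their controls. The authors' deposited table gives QARS a log2 fold change of -0.43 in DMSO (standard error 0.054, DESeq2 adjusted p = 6.47e-14). KARS, the lysyl enzyme, fell by 0.14 in the authors' deposited table (log2 scale, DESeq2 adjusted p = 0.0106), a call that was lost when fold changes were centred on the median of all genes with a mean of at least 100 (-0.10, adjusted p = 0.0688).

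VARS, the valyl enzyme (chromosome 6 from 31777518 to 31795953, minus strand), moved the other way. Its means were 10941, 13874, 13010 and 14489 in the same order, lowest in siControl DMSO. With siRFX7 in DMSO the authors' deposited table gives VARS a log2 fold change of 0.25 (standard error 0.043, DESeq2 adjusted p = 1.07e-07). HARS, the histidyl enzyme (chromosome 5 from 140673904 to 140691862, minus strand; means 3679, 4722, 4331 and 5608 in the same order), and RARS, the arginyl enzyme (chromosome 5 from 168486445 to 168519299, plus strand; means 5547, 6374, 6511 and 7650), also rose. Their log2 fold changes in the authors' deposited table were 0.24 (standard error 0.042, DESeq2 adjusted p = 2.85e-07) and 0.23 (standard error 0.057, adjusted p = 3.52e-04), and both were highest in the group with both treatments. The 3 that did not pass, DARS, FARSA and FARSB, had 95% intervals within -0.15 and 0.22.

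Of the mitochondrial members WARS2, the tryptophanyl enzyme (chromosome 1 from 119031216 to 119140671, minus strand), had the lowest log2 fold change in DMSO, -0.64 in the authors' deposited table (standard error 0.16, DESeq2 adjusted p = 2.94e-04). It was also among the least abundant members, with means of 160 (DMSO) and 219 (Nutlin-3a) with siControl, and 103 (DMSO) and 122 (Nutlin-3a) with siRFX7. VARS2 (chromosome 6 from 30908242 to 30926459, plus strand) fell by 0.34 (log2) in the authors' deposited table (standard error 0.064, adjusted p = 1.98e-06 by DESeq2), from means of 1077 in siControl DMSO to 854 in siRFX7 DMSO. AARS2 (chromosome 6 from 44299654 to 44313326, minus strand) fell by 0.26 in the authors' deposited table (standard error 0.089, DESeq2 adjusted p = 0.0171), and LARS2 and RARS2 each fell by 0.18. These smaller falls depend on scaling: LARS2 and RARS2 lost their call under both rescalings tried, and AARS2 under equal group totals (adjusted p = 0.0794), while CARS2 was called higher under both (0.15 and 0.17, adjusted p = 0.0467 and 0.0178). For the 11 not called, 95% intervals of the log2 fold change ran from -0.25 (MARS2) to 0.52 (SARS2).

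Comparing enzymes for the same amino acid gave 17 pairs of a cytosolic and a mitochondrial gene, with EPRS counted in 2 pairs (EARS2 and PARS2) and FARS2 in 2. In DMSO the siRFX7 log2 fold change of the cytosolic gene minus that of its mitochondrial partner was below 0 in 12 of the 12 pairs with an ATF4-linked enzyme, with a median of -0.52, from -1.33 for CARS and CARS2 to -0.23 for IARS and IARS2. In the 5 pairs with another cytosolic enzyme it was above 0 in 3 and below 0 in 2, with a median of 0.17. These differences were computed from the authors' deposited table and were not tested pair by pair.

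**Figure D2:**
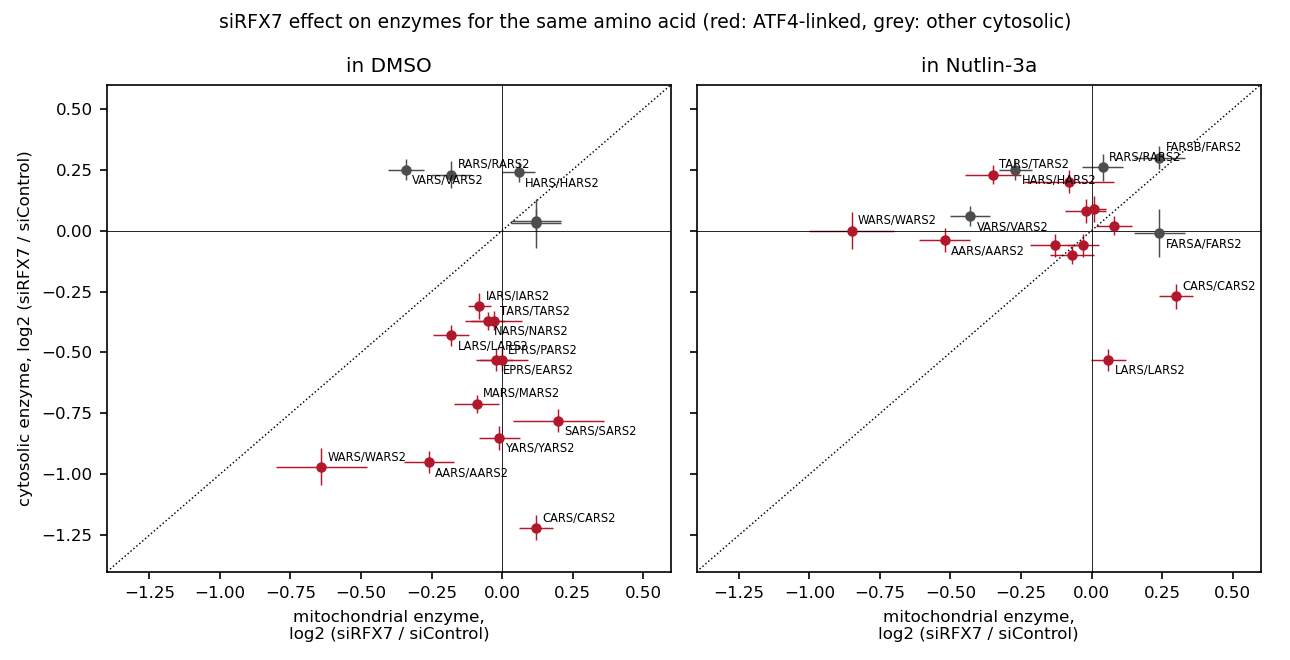
Log2 fold change of siRFX7 over siControl for cytosolic enzymes (vertical) against the mitochondrial enzyme for the same amino acid (horizontal), in DMSO and in Nutlin-3a, with standard errors and the line of equality dotted. In DMSO all 12 pairs with an ATF4-linked enzyme, in red, lie below the line, and in Nutlin-3a 5 do.

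In Nutlin-3a, the second condition in which siRFX7 was set against siControl, the same 12 ATF4-linked members had a median log2 fold change of 0.01 in the authors' deposited table. Of them 2 rose, 3 fell and 7 did not pass. Background shares over all genes there were 15.0% called higher, 13.6% lower and 28.6% in either direction, and over the abundant genes 20.8%, 22.2% and 43.0%. The 7 not called (AARS, EPRS, GARS, IARS, NARS, WARS and YARS) had 95% intervals from -0.15 to 0.19. Among them WARS had a log2 fold change of -0.00 in the authors' deposited table, with an interval of -0.15 to 0.15. GARS was called higher when groups were scaled to equal totals (0.08, adjusted p = 0.0474), and MARS then lost its call (-0.07, adjusted p = 0.147).

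Opposite calls in DMSO and Nutlin-3a were made for SARS and TARS. SARS, the seryl enzyme (chromosome 1 from 109213918 to 109238169, plus strand), had means of 9431 (DMSO) and 8945 (Nutlin-3a) with siControl, and 5501 (DMSO) and 10299 (Nutlin-3a) with siRFX7. Its low group was siRFX7 DMSO alone. With siRFX7 the authors' deposited tables give SARS a log2 fold change of -0.78 in DMSO (DESeq2 adjusted p = 9.35e-57, standard error 0.048) and of 0.20 in Nutlin-3a (adjusted p = 1.47e-04, standard error 0.047). TARS, the threonyl enzyme (chromosome 5 from 33440696 to 33469539, plus strand), had means of 10895, 6505, 8402 and 7636 in the same order. In the authors' deposited tables TARS had log2 fold changes of -0.37 in DMSO (DESeq2 adjusted p = 3.13e-20, standard error 0.039) and of 0.23 in Nutlin-3a (adjusted p = 8.22e-08, standard error 0.040).

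LARS, the leucyl enzyme (chromosome 5 from 146113038 to 146182660, minus strand), fell in both conditions. Its means were 7016 (DMSO) and 4734 (Nutlin-3a) with siControl, and 5199 (DMSO) and 3289 (Nutlin-3a) with siRFX7, so that each treatment lowered it and the group with both stood lowest. The authors' deposited tables give LARS a log2 fold change of -0.43 in DMSO (DESeq2 adjusted p = 1.49e-20, standard error 0.044) and of -0.53 in Nutlin-3a (adjusted p = 3.59e-28, standard error 0.046). CARS and MARS also fell in Nutlin-3a, with log2 fold changes of -0.27 and -0.10 in the authors' deposited table (DESeq2 adjusted p = 5.63e-06 and 0.0350).

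In the same condition 3 of the 8 other cytosolic members rose, 2 fell and 3 did not pass, with a median of 0.02. Of all genes listed there, 28.6% were called in either direction, and of the abundant genes 43.0%. FARSB, the beta subunit of the phenylalanyl enzyme (chromosome 2 from 222570536 to 222656337, minus strand), had means of 4438 (DMSO) and 2894 (Nutlin-3a) with siControl, and 4551 (DMSO) and 3557 (Nutlin-3a) with siRFX7, the Nutlin-3a groups being the lower. With siRFX7 in Nutlin-3a the authors' deposited table gives FARSB 0.30 (standard error 0.049, DESeq2 adjusted p = 2.24e-08). HARS and RARS rose as in DMSO, with 0.25 and 0.26 (log2) in the authors' deposited table. QARS fell here too, with a log2 fold change of -0.67 in the authors' deposited table (standard error 0.054, DESeq2 adjusted p = 2.23e-33), and DARS, the aspartyl enzyme, fell by 0.14 on that scale (adjusted p = 0.0290), a call lost under equal totals (-0.12, adjusted p = 0.0883).

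The 16 mitochondrial members gave 2 higher, 5 lower and 9 not called in Nutlin-3a, with a median of -0.05. Beside this, 28.6% of all genes and 43.0% of the abundant genes were called in either direction. The count is therefore not read as a result about the class. WARS2 fell by 0.85 (log2) in the authors' deposited table (standard error 0.15, DESeq2 adjusted p = 2.97e-07), AARS2 by 0.52 (standard error 0.090, adjusted p = 1.35e-07) and VARS2 by 0.43 (standard error 0.070, adjusted p = 2.53e-08). These 3 were lower with siRFX7 in both conditions, on libraries that the 2 siRFX7 tables do not share. HARS2 and TARS2 fell, and CARS2 and FARS2 rose, with log2 fold changes of -0.27, -0.35, 0.30 and 0.24 in the authors' deposited table. The 9 not called had 95% intervals from -0.40 to 0.24.

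Nutlin-3a in siControl cells, the comparison for p53 activation without siRFX7, gave the ATF4-linked members their lowest median of the 4 tables. In the authors' deposited table they had a median log2 fold change of -0.78, from -1.66 for AARS to -0.08 for SARS, and 11 of 12 fell. Of all genes listed there, 21.2% were called lower, 22.0% higher and 43.2% in either direction, and of the abundant genes 32.8%, 36.6% and 69.4%. AARS fell by 1.66 to 31.6% of its DMSO level in the authors' deposited table (DESeq2 adjusted p = 8.72e-265), and YARS (-1.30), MARS (-1.09), CARS (-1.05) and GARS (-1.02) followed. SARS had an adjusted p of 0.197 by DESeq2 and a 95% interval of -0.17 to 0.02. The siControl DMSO libraries serve as the baseline both here and for siRFX7 in DMSO, so the falls in these 2 comparisons are not independent of each other.

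The other cytosolic members had a median log2 fold change of 0.17 with Nutlin-3a in siControl in the authors' deposited table, 4 of 8 rising and 2 falling. QARS (0.49), HARS (0.36), VARS (0.34) and RARS (0.20) rose in the authors' deposited table, and FARSB (-0.62) and KARS (-0.12) fell. Among mitochondrial members 4 rose (HARS2, MARS2, PARS2 and WARS2), 4 fell (VARS2, NARS2, RARS2 and IARS2) and 8 did not pass, with a median of 0.08. The deepest of these falls was -0.58 for VARS2 in the authors' deposited table. In this comparison 43.2% of all genes and 69.4% of the abundant genes were called in either direction. The counts are therefore not read as results about either class.

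Nutlin-3a in siRFX7 cells gave 3 higher, 7 lower and 2 not called among the ATF4-linked members, with a median log2 fold change of -0.15 in the authors' deposited table, beside 21.7% called higher, 19.7% lower and 41.4% in either direction among all genes listed, and 38.5%, 28.3% and 66.8% among the abundant genes. SARS rose by 0.90 (log2) in the authors' deposited table (standard error 0.048, DESeq2 adjusted p = 2.36e-78), to 187% of its DMSO level under siRFX7. AARS and LARS fell, with -0.76 and -0.66 in the authors' deposited table. EPRS (chromosome 1 from 219968601 to 220046658, minus strand; means 14063, 10967, 9733 and 10553) and NARS (chromosome 18 from 57600656 to 57622213, minus strand; means 8992, 7330, 6978 and 7454) were called higher here and lower with Nutlin-3a in siControl. Their log2 fold changes in the authors' deposited tables were 0.12 and 0.10 here (standard errors 0.047 and 0.038, DESeq2 adjusted p = 0.0345 and 0.0331), and -0.36 and -0.29 in siControl. Both calls were lost under centring (0.09, adjusted p = 0.118 for EPRS; 0.07, adjusted p = 0.147 for NARS) and under equal totals.

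Over all 36 members the split in this comparison was 9 higher and 11 lower, which became 7 and 13 when centred on the median and 7 and 15 with equal totals. Among all genes listed 21.7% were called higher and 19.7% lower, and among the abundant genes 38.5% and 28.3%. Among the other cytosolic members 4 rose (HARS, QARS, RARS and VARS, the same 4 as in siControl) and 2 fell (DARS and FARSB). Among the mitochondrial members CARS2 and MARS2 rose, NARS2 and VARS2 fell and 12 did not pass. VARS2 fell by 0.67 in the authors' deposited table (DESeq2 adjusted p = 1.55e-21), so that its lowest group mean, 535, was that of siRFX7 Nutlin-3a against 1077 in siControl DMSO.

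**Figure D3:**
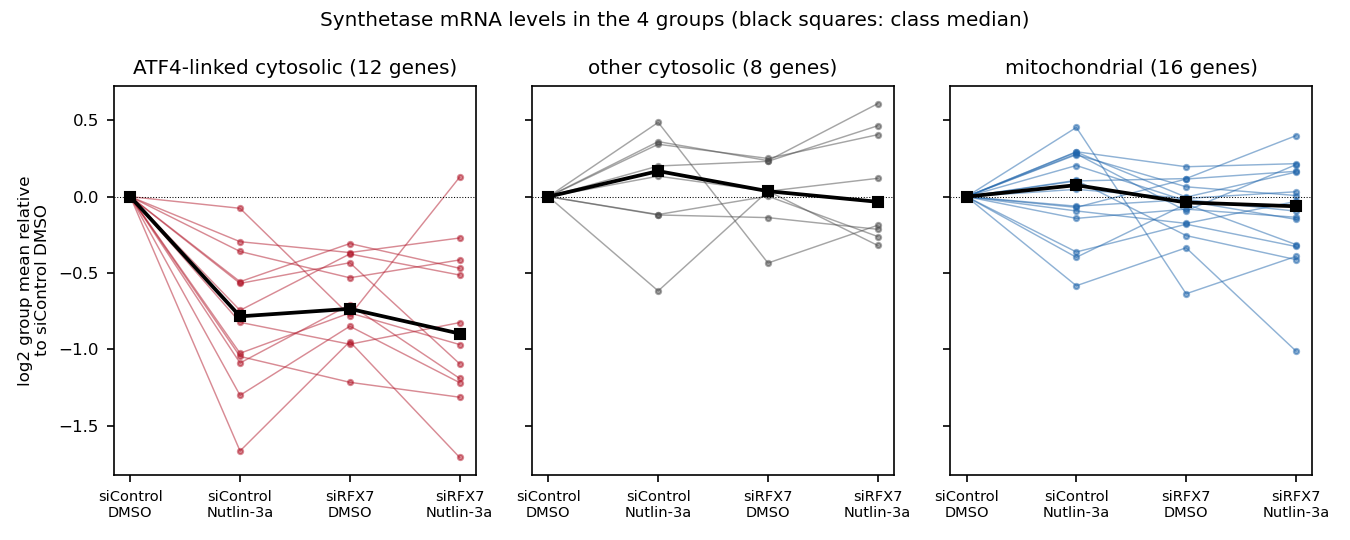
Group means of each member in the 4 groups, as log2 of the mean normalized count relative to siControl DMSO, by class, with class medians. Of the 12 ATF4-linked members 11 were highest in siControl DMSO, and SARS was highest in siRFX7 Nutlin-3a.

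Across the 4 groups, 11 of the 12 ATF4-linked members stood highest in siControl DMSO. The ratio of the highest to the lowest group mean had a median of 1.99 in this class (1.29 to 3.26), of 1.35 among other cytosolic members (1.10 to 1.89) and of 1.25 among mitochondrial members (1.04 to 2.14). The lowest group was siControl Nutlin-3a for 4 ATF4-linked members, siRFX7 DMSO for 4 and siRFX7 Nutlin-3a for 4. Summed group means of the class were 80146 with Nutlin-3a alone, 87032 with siRFX7 alone and 81518 with both, that is 60.0%, 65.2% and 61.1% of the siControl DMSO sum. For the other cytosolic members the sums were 110%, 104% and 110%, and for the mitochondrial members 96.7%, 95.3% and 93.8%, in the same order.

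Whether Nutlin-3a acted differently with and without siRFX7 was tested directly, as the Nutlin-3a log2 fold change under siRFX7 minus that under siControl, with a two-sided z test and Benjamini-Hochberg adjustment over 23195 genes. The same difference is the siRFX7 effect in Nutlin-3a minus that in DMSO. Of the 12 ATF4-linked members 11 had a difference above 0 that passed, with a class median of 0.71, beside 3.28% of all genes above 0, 2.92% below 0 and 6.20% in either direction. Among the abundant genes these shares were 7.89%, 5.13% and 13.0%. Of the other cytosolic members 1 passed above 0 and 2 below, with a median of -0.02. Of the mitochondrial members 0 passed above 0 and 1 below, with a median of -0.01. The difference uses all 4 groups, siControl DMSO included, and so is not independent of the falls described for DMSO.

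**Figure D4:**
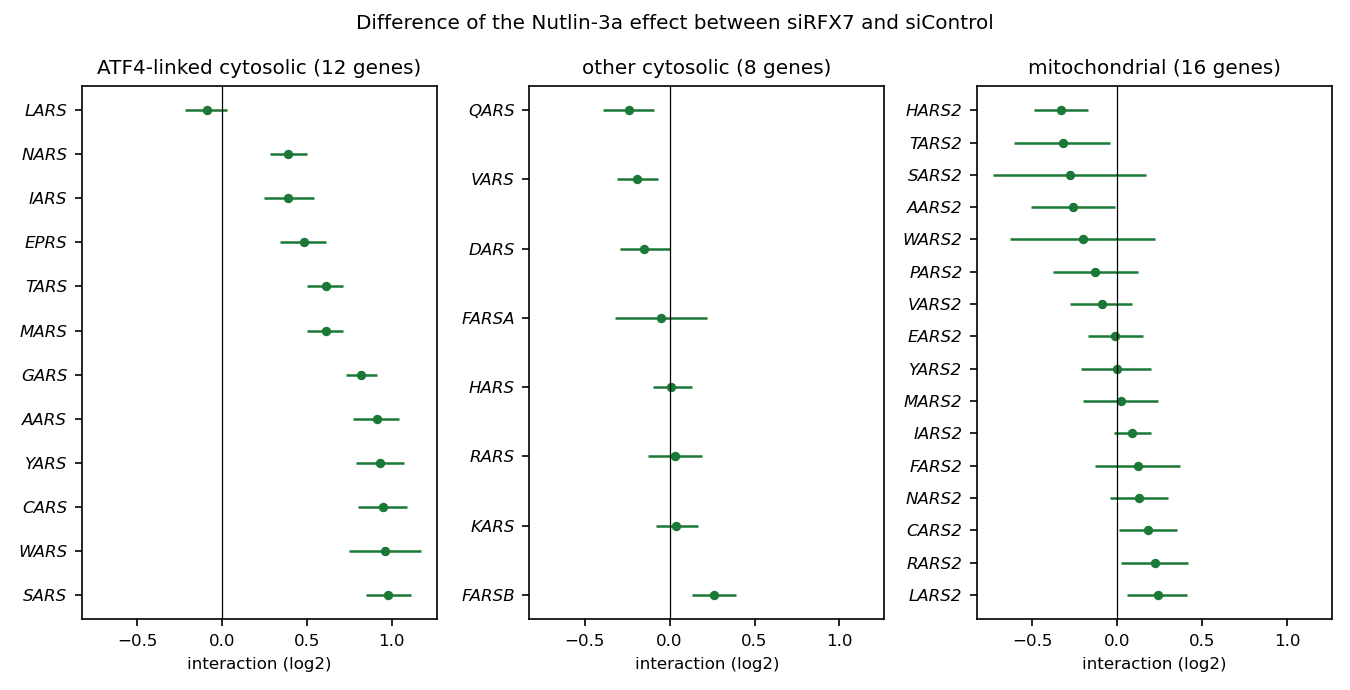
Difference of the Nutlin-3a log2 fold change between siRFX7 and siControl for each member, by class and in order of size, with 95% intervals. The 11 ATF4-linked members that passed lie between 0.39 and 0.98, and LARS lies at -0.09 with an interval that spans 0.

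SARS had the largest difference of the 36, 0.98 (standard error 0.067, z test adjusted p = 1.00e-44). WARS followed with 0.96 (standard error 0.11, adjusted p = 1.26e-16 by the z test) and CARS with 0.95 (standard error 0.073, adjusted p = 4.69e-35). YARS, AARS and GARS were at 0.93, 0.91 and 0.82, MARS and TARS both at 0.61, EPRS at 0.48, and IARS and NARS both at 0.39. LARS, at -0.09, did not pass (adjusted p = 0.538), with a 95% interval of -0.22 to 0.03, which lies below the value of every other ATF4-linked member.

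Outside that class FARSB had a difference of 0.26 (standard error 0.068, z test adjusted p = 0.00404). QARS had -0.24 (standard error 0.077, adjusted p = 0.0341 by the z test) and VARS -0.19 (standard error 0.061, adjusted p = 0.0367). HARS2, the mitochondrial histidyl enzyme (chromosome 5 from 140691426 to 140699318, plus strand), had means of 1971 (DMSO) and 2384 (Nutlin-3a) with siControl, and 2061 (DMSO) and 1981 (Nutlin-3a) with siRFX7, with only siControl Nutlin-3a standing high. Its difference was -0.33 (standard error 0.082, adjusted p = 0.00213 by the z test). The 15 mitochondrial members that did not pass had 95% intervals from -0.73 (SARS2) to 0.42 (RARS2), so differences as large as those of NARS or IARS lie within the intervals of some of them.

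By pairs, the difference was larger for the cytosolic than for the mitochondrial enzyme in 11 of the 12 pairs with an ATF4-linked enzyme, with a median gap of 0.69, from -0.33 for LARS and LARS2 to 1.26 for SARS and SARS2. In the 5 pairs with another cytosolic enzyme the median gap was -0.10.

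Membership of the multi-synthetase complex cut across the classes. Its 4 ATF4-linked enzymes (EPRS, IARS, LARS and MARS) all fell with siRFX7 in DMSO, with a median log2 fold change of -0.48 in the authors' deposited table. Of its 4 other enzymes 1 rose (RARS), 2 fell (KARS and QARS) and DARS did not pass, with a median of -0.07. Of all genes listed there, 15.5% were called lower and 13.5% higher. The scaffold genes AIMP1, AIMP2 and EEF1E1 gave 0 calls with siRFX7 in either condition by DESeq2, with log2 fold changes from -0.09 to 0.15 in the authors' deposited tables. The shares of all genes called in either direction were 29.0% in DMSO and 28.6% in Nutlin-3a. With Nutlin-3a in siControl AIMP2 and EEF1E1 fell, with log2 fold changes of -0.22 and -0.55 in the authors' deposited table.

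Genes of the ATF4 pathway other than the synthetases were taken from a list of 30, of which 28 were listed in the siRFX7 tables and 29 in the Nutlin-3a tables. With siRFX7 in DMSO 27 of 28 fell and 1 rose, with a median log2 fold change of -0.99 in the authors' deposited table. Among all genes listed there 15.5% were called lower and 13.5% higher, and among the abundant genes 27.8% and 16.5%. The gene that rose was ATF5, a relative of ATF4, at 0.50 in the authors' deposited table. ATF4 itself had log2 fold changes in the authors' deposited tables of -1.04 with siRFX7 in DMSO (DESeq2 adjusted p = 1.69e-40), -0.12 with siRFX7 in Nutlin-3a (adjusted p = 0.254), -1.47 with Nutlin-3a in siControl (adjusted p = 1.77e-81) and -0.55 with Nutlin-3a in siRFX7 (adjusted p = 5.70e-12). Its difference between the Nutlin-3a effects was 0.92 (z test adjusted p = 4.74e-15), within the range of the ATF4-linked synthetases.

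In Nutlin-3a siRFX7 left 5 of the 28 listed genes higher, 10 lower and 13 not called, with a median of -0.13 in the authors' deposited table. Shares over all genes there were 15.0% higher and 13.6% lower, and over the abundant genes 20.8% and 22.2%. CHAC1, which breaks down glutathione, TRIB3, a pseudokinase induced by stress, and SLC7A11, the cystine importer, had log2 fold changes with siRFX7 in DMSO of -2.29, -1.81 and -1.63 in the authors' deposited table. None of these 3 passed in Nutlin-3a, where the authors' deposited table gives them 0.20, -0.18 and -0.25 (DESeq2 adjusted p = 0.284, 0.0560 and 0.0695). The 10 called lower there included ASNS at -1.09, PHGDH at -0.70 and SHMT2 at -0.57 (DESeq2 adjusted p = 2.33e-04, 5.89e-12 and 1.01e-27). For comparison, the siRFX7 effect under DMSO was -1.98 for ASNS, -1.46 for PHGDH and -0.78 for SHMT2. The 5 called higher were ATF5, DDIT3, PSPH, SLC1A4 and SLC1A5. DDIT4, an inhibitor of mTORC1, fell in both conditions, with log2 fold changes of -1.97 and -1.78 in the authors' deposited tables. XPOT, which exports tRNA from the nucleus, had log2 fold changes with siRFX7 in the authors' deposited tables of -0.71 (DMSO) and 0.01 (Nutlin-3a).

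With Nutlin-3a in siControl 22 of 29 ATF4 pathway genes fell and 4 rose (SESN2, DDIT4, PPP1R15A and NUPR1), with a median of -1.18 in the authors' deposited table. Among all genes 21.2% were called lower and 22.0% higher there, and among the abundant genes 32.8% and 36.6%. In siRFX7 17 fell and 4 rose (PSPH, SESN2, DDIT4 and NUPR1), with a median of -0.37. The shares for Nutlin-3a in siRFX7 were 19.7% lower and 21.7% higher over all genes, and 28.3% and 38.5% over the abundant genes. The difference between these Nutlin-3a effects passed above 0 for 23 of 29 genes and below 0 for 0 by the z test, with a median of 0.85. Of all genes 3.28% passed above 0 and 2.92% below, and of the abundant genes 7.89% and 5.13%. The list's genes and the synthetases come from the same general knowledge of ATF4 targets, so their counts are not independent descriptions.

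The 4 kinases that phosphorylate eIF2alpha did not share a direction with siRFX7 in DMSO. EIF2AK2, which senses double-stranded RNA, and EIF2AK4, which senses uncharged tRNA, rose by 0.32 and 0.30 (log2) in the authors' deposited table. EIF2AK1, the heme-regulated kinase, and EIF2AK3, the kinase of the endoplasmic reticulum, fell, with -0.17 and -0.37 in the authors' deposited table. These are RNA levels and do not measure kinase activity.

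Mitochondrial translation genes outside the synthetases were followed as a comparison for the mitochondrial members, 13 of a list of 14 being listed. With siRFX7 in DMSO 0 rose and 1 fell by DESeq2, MRRF, the ribosome recycling factor, at -0.16 in the authors' deposited table, and the median was -0.01. Of all genes listed there, 29.0% were called in either direction, and of the abundant genes 44.4%. In Nutlin-3a 2 rose and 2 fell, with a median of 0.01 in the authors' deposited table. The difference between Nutlin-3a effects passed for 1 of 13, QRSL1, a subunit of the amidotransferase that makes glutaminyl-tRNA in mitochondria, at 0.25 (z test adjusted p = 0.0440). Of all genes 6.20% passed.

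The genes with a profile most like the class median of the ATF4-linked members were sought among the 6184 abundant genes, by Euclidean distance over the 4 centred log2 group means. That class profile was 0.59 (DMSO) and -0.20 (Nutlin-3a) with siControl, and -0.04 (DMSO) and -0.23 (Nutlin-3a) with siRFX7. The nearest genes were LONP1, a mitochondrial protease (distance 0.133), HNRNPUP1, a processed pseudogene (0.138), HAX1 (0.138), NUP188, a nuclear pore component (0.176), and BRI3BP (0.178). GARS was the nearest member, ranked 6 with a distance of 0.183. Of the 12 members, 10 ranked between 6 and 844 (CARS, distance 0.461), while AARS ranked 3258 with a distance of 0.763 and SARS 4305 with 0.922. Abundant members of the other classes ranked from 761 for mitochondrial NARS2 (0.450), within that range, to 4916 for HARS (1.07). Among them KARS, FARSB, DARS and IARS2, at 1302, 1312, 1431 and 1481, were nearer than AARS and SARS. ATF4 ranked 1934 with 0.604. The distances are to the class median, which the members themselves set, and they also count the size of the swing. These distances rest on 4 group means per gene.

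Counts of some members can share reads with other genes, because how the counting treated strand and multiply mapped reads is not given in the sources used here. By GENCODE release 29, exons of MARS overlap those of DDIT3, itself an ATF4 pathway gene, on the other strand over 355 bases, or 5.05% of the exon bases of MARS. HARS and HARS2, which lie head to head, overlap over 437 bases, or 11.7% of HARS2. SARS2 shares 46.2% of its exon bases with AC011455.2, and VARS2 shares 22.0% with GTF2H4, both on the same strand, so the values of SARS2 and VARS2 are uncertain to that extent. AARS, CARS, GARS, NARS, WARS, FARSB, KARS, RARS, IARS2, TARS2 and WARS2 have named pseudogenes in that annotation, and reads that match both could be split or dropped.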

How the data were processed

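Polyadenylated RNA was sequenced in 12 libraries, 3 in each of 4 groups. Reads were trimmed, counted on hg38 with featureCounts 1.6.5 and compared with DESeq2 1.20.0, per the submitters' processing notes, which also name bcl2fastq 2.20.0.422, Trimmomatic 0.39, cutadapt 2.10 and SAMtools 1.10. The aligner, the annotation and the handling of strand are not given in the sources used here. Per the file headers, the deposited mean normalized count of a gene is a signal: counts were scaled by size factors and averaged over libraries. Fold changes and standard errors were deposited on a log2 scale. The deposited test statistic is a score, the ratio of the fold change on that scale to its error. The deposited p-value and adjusted p-value are those of the authors' Wald test, with Benjamini-Hochberg adjustment.

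Fold changes of both siRFX7 comparisons were taken with siControl as the denominator, since the 4 tables then closed to within 1.29e-14 (median error 0.374 the other way). Group means were recovered from the mean over 12 libraries and the fold changes. The interaction was the difference of the Nutlin-3a log2 fold changes, with its standard error from the sum of their squares, in a two-sided z test that takes those errors as known. Computations used Python 3.11.15, numpy 2.4.6, scipy 1.17.1 and pandas 2.3.3, and were tested on simulated data. A test on counts had been planned with edgeR, for which these tables are not suited, since they hold statistics.

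Members and lists were chosen with earlier results of these data known. Every member may be named, and full statistics are given for up to 3 called members per class with the largest interaction, siRFX7 change in DMSO or siRFX7 change in Nutlin-3a, and for members called in opposite directions. Alternatives were a stricter threshold, a minimum fold change, 2 rescalings, 2 adjustments and 4 class definitions.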

Additional observations from a re-analysis of the deposited data

Results flagged for a closer look

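A difference of the Nutlin-3a effect between siRFX7 and siControl cells passed the z test, after adjustment over all genes, for 15 of the 36 members, and each is given as a log2 difference, siRFX7 minus siControl. Above 0 were SARS (0.98), WARS (0.96), CARS (0.95), YARS (0.93), AARS (0.91), GARS (0.82), MARS (0.61), TARS (0.61), EPRS (0.48), IARS (0.39), NARS (0.39) and FARSB (0.26). Below 0 were HARS2 (-0.33), QARS (-0.24) and VARS (-0.19). Of all genes 6.20% passed.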

How the results depend on the processing

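No called result of the 17 members given full statistics changed direction under an alternative that was run, while values near 0 that were not called could change sign, as for WARS with siRFX7 in Nutlin-3a (-0.00, and 0.03 with equal totals). With a minimum absolute log2 fold change of 0.58 the members called numbered 8 of 22 with siRFX7 in DMSO, 2 of 17 with siRFX7 in Nutlin-3a, 9 of 25 with Nutlin-3a in siControl, 4 of 20 with Nutlin-3a in siRFX7 and 8 of 15 for the difference between the Nutlin-3a effects. The median of the ATF4-linked members minus that of the mitochondrial members went from -0.70 to -0.60 with means in place of medians (siRFX7 in DMSO). With members of a mean of at least 1000 it went from 0.06 to 0.00 (siRFX7 in Nutlin-3a), from -0.86 to -0.72 (Nutlin-3a in siControl) and from 0.72 to 0.62 (the difference), which was also 0.62 with VARS moved into the class or with GARS and KARS left out. The cause of these shifts was not tested, except that a minimum fold change can only remove calls. For these 17 members 455 results kept their side of the threshold, 53 lost a call, 43 of them to the minimum fold change, and 2 gained one (CARS with Nutlin-3a in siRFX7, both rescalings). The median of all genes moved by less than 0.1 on the log2 scale under every rescaling. The ATF4-linked counts of 12 lower with siRFX7 in DMSO, 11 lower with Nutlin-3a in siControl and 11 above 0 for the difference were the same under both rescalings. No paired analysis was possible because the tables hold statistics per comparison and no values per library. For the same reason tests on counts, filters on counts and leaving out a replicate were not run. Mitochondrial members, less abundant and with wider errors, were measured less precisely.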
